A study of Caenorhabditis elegans with 2 samples.

Results

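The 5165 EFL-1 peaks described here lie just below the threshold of the deposited peak set. EFL-1 is a C. elegans E2F transcription factor, and its binding was mapped by chromatin immunoprecipitation with sequencing (ChIP-seq) using an antibody labelled efl-1. The material was whole L1 larvae (the first larval stage), hermaphrodites of strain N2, the wild type, grown at 26 °C, in 1 group of 2 biological replicates with no second condition. The authors deposited a relaxed peak list for each replicate (28817 peaks for replicate 1 and 30000 for replicate 2), a relaxed list called on both replicates together (30000 peaks) and a set of 4835 peaks thresholded by the irreproducible discovery rate (IDR), a measure of how alike peaks rank in replicates. The IDR set equalled the 4835 highest-scoring peaks of the pooled list. The relaxed lists are labelled as peaks and background used as input for IDR, so some of their entries may be background. The peaks described here were chosen by their pooled score alone. They are ranks 4836 to 10000 of the 30000, and are called the subthreshold peaks. The pooled list was the source of all values unless a replicate is named. Whole larvae mix all tissues, so no signal can be assigned to a cell type.

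E2F proteins bind DNA with a dimerization partner, DPL-1 in the worm, and recognize GC-rich elements near the starts of genes for DNA replication and cell division. EFL-1 is also a subunit of the DREAM complex, in which an E2F dimer, a pocket protein and the MuvB core repress cell cycle genes in cells that are not dividing. A thresholded peak list sorts a continuous range of enrichment into reported and unreported sites. The peaks around the threshold therefore matter for any statement about which genes a factor does not occupy, although some of them may be background.

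The selection left a narrow range of scores. The last IDR peak had a score of 59.57 and the first subthreshold peak 59.55, and at the other end rank 10000 and rank 10001 both scored 23.83. The median score was 32.8 in the subthreshold peaks, with quartiles of 27.4 and 42.4, against a median of 179.8 in the IDR set. The scale of this peak score is not stated, so it is used only to rank and describe peaks within a list. The deposited −log10 q stood at its ceiling of 4.04 in 589 subthreshold peaks (11.4%), the last of them at rank 5424, and in all IDR peaks. Below that rank it declined to a lowest value of 0.930. Over all subthreshold peaks its median was 1.98 and its lower quartile 1.33. All of these values belong to the selection and are given as a description.

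The DNA at the subthreshold peaks is shown first for those that carried the E2F consensus, since this is the element the factor is known to recognize. Each line gives the bases of WBcel235 (the assembly of ce11, sequence from RefSeq) within 50 bp of the centre of the consensus, in lower case with the consensus in capitals. They are the 6 highest-ranked cases with the consensus that were found in both replicate lists, lay in the promoter window of a gene with no IDR summit, and did not touch an untranslated region (one chromosome was left out). The consensus has 4 forms, searched on both strands. They are TTCCCGC together with TTCGCGC, plus TTGCCGC together with TTGGCGC.
R03H10.1 (II:4180140-4180240, plus strand): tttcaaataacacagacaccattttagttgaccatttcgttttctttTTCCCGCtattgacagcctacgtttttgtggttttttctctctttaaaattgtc
twk-2 (II:4453495-4453595, plus strand): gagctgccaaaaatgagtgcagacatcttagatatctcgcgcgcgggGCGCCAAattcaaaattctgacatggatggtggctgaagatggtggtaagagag
R13H4.2 (V:11836205-11836305, plus strand): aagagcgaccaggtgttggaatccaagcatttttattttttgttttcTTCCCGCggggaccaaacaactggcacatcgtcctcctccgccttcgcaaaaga
ceh-99 (II:12519744-12519844, plus strand): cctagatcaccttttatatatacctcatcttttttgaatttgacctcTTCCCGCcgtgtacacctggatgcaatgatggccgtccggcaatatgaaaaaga
F28H6.4 (X:14127376-14127476, plus strand): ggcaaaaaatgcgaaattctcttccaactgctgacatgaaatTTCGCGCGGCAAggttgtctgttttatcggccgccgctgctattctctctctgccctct
ZK1055.4 (V:6581901-6582001, plus strand): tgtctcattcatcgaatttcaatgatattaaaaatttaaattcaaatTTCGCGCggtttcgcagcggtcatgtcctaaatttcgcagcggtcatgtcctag

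The sequence at F28H6.4 held overlapping matches in opposite directions. They share bases, so that the capitals form 1 longer run. At twk-2, which encodes a potassium channel, the match was the reverse complement of TTGGCGC and stood 25 bp from the summit, beside a run of alternating C and G. At R03H10.1, R13H4.2 and ceh-99, a homeobox gene, the element was TTCCCGC, centred 97 bp, 82 bp and 30 bp from the summits. Most subthreshold peaks had no such element. The 3 highest-ranked promoter peaks without it that met the same conditions are shown next, each as the bases within 50 bp of the summit. Capitals here mark the words GAGAGA together with AGAGAC, plus CGTCTC together with ACGCAG, or their reverse complements, which were frequent at the summits and are counted further on.
Y24D9A.7 (IV:4405302-4405402, plus strand): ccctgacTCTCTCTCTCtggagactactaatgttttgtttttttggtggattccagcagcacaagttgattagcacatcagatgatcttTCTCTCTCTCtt
R12B2.7 (III:5814879-5814979, plus strand): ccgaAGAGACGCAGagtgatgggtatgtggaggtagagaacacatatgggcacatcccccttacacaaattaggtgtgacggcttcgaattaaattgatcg
acl-3 and ndub-6 (IV:11652106-11652206, plus strand): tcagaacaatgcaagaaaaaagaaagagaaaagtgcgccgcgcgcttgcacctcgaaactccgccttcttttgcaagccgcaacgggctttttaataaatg

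The peak upstream of Y24D9A.7 held runs of alternating C and T at both ends of the stretch shown. The peak upstream of R12B2.7 held AGAGAC directly followed by GCAG, so that AGAGAC and ACGCAG overlapped. The peak between acl-3, which encodes a tafazzin-like acyltransferase, and ndub-6, named for a subunit of mitochondrial complex I, held none of these words within 50 bp of its summit.

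Most subthreshold peaks were found again in the lists of both replicates, but far less often than IDR peaks. A peak counted as present in a replicate list when a summit of that list lay within 100 bp. Of the 5165 subthreshold peaks, 3522 (68.2%, exact 95% interval 66.9 to 69.5) were present in both lists, against 97.6% of IDR peaks. For single replicates, presence was 77.2% (replicate 1) and 89.6% (replicate 2). A further 1107 (21.4%) were found only in replicate 2, 465 (9.0%) only in replicate 1, and 71 (1.37%) in neither list. Of all nuclear bases, 5.78% lay within 100 bp of a replicate 1 summit, 6.01% of a replicate 2 summit and 2.07% of both. The next 5165 peaks, ranks 10001 to 15165, had a share of 36.5% in both lists. The reads of each replicate are in the pool that ranked the peaks, so presence is not independent of the selection. Intervals here and later cover counting error only, since peaks of 1 library pool are not replicates.

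Presence declined steadily across the subthreshold ranks. In 5 equal bins of 1033 peaks, the share in both lists was 83.2%, 76.3%, 67.5%, 59.2% and 54.8% from the highest to the lowest scores. The first bin covered scores of 45.0 to 59.5 and the last 23.8 to 26.6. The list of replicate 1 lost more across these bins, with 87.9% in the first and 69.0% in the last, than that of replicate 2, with 94.8% and 82.9%. In bins of 1000 ranks, the share in both lists was 96.2% at ranks 3001 to 4000, 92.1% at ranks 4001 to 5000, a bin that spans the IDR threshold, and 81.7% at ranks 5001 to 6000.

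**Figure D1:**
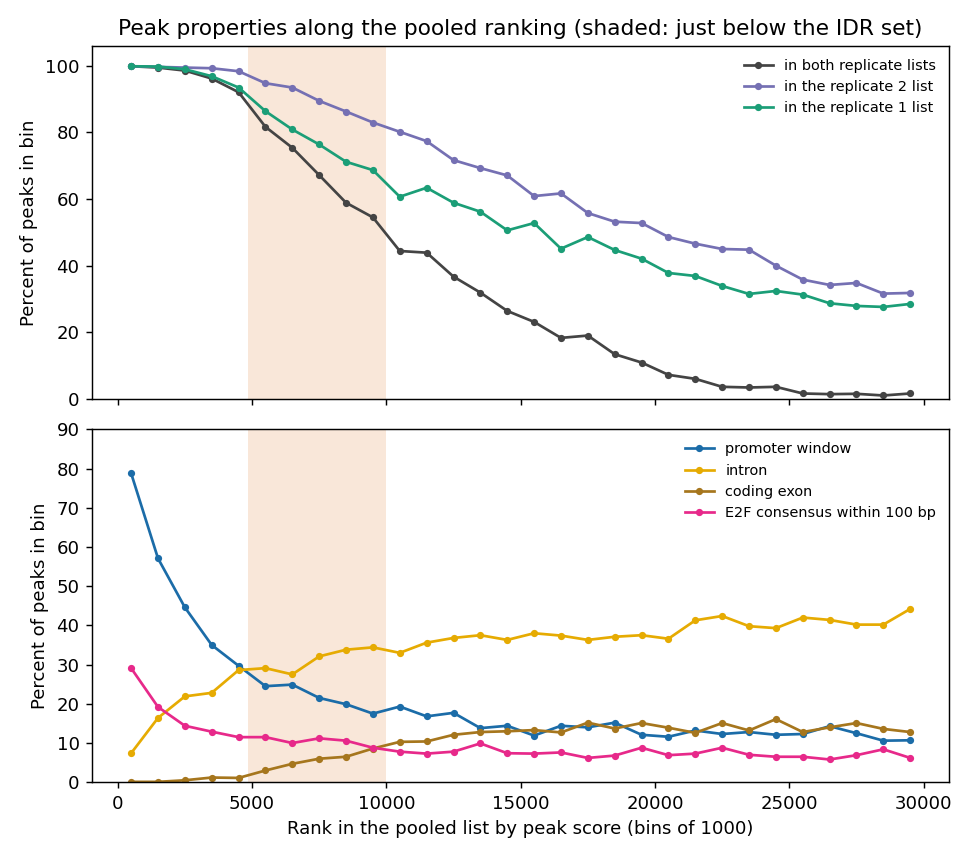
Percent of pooled peaks in bins of 1000 ranks (horizontal axis: rank by peak score) that were found in each replicate list and in both (upper panel), and that lay in promoter windows, introns or coding exons or held the E2F consensus within 100 bp of the summit (lower panel). Shading marks the subthreshold peaks; the share in both lists declines through the threshold, with 92.1% at ranks 4001 to 5000 and 81.7% at ranks 5001 to 6000.

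Few subthreshold peaks were among the strongest of a single replicate, and 5 were so in both. The pooled score that placed them below rank 4835 draws on both replicates, so low numbers are largely built into the selection. Of the subthreshold peaks, 440 (8.52%) lay within 100 bp of one of the top 4835 peaks of replicate 1. For the top 4835 of replicate 2 the number was 224 (4.34%), and together these made 659 peaks (12.8%). The 5 in both tops were a peak 118 bp upstream of tat-1, a peak 18 bp upstream of Y17G7B.20 and 24 bp inside ash-2, a peak 186 bp inside czw-1, a peak in an intron of F53H1.4, and a peak 4108 bp upstream of nhr-258, outside coding genes. The peak at tat-1, which encodes an aminophospholipid flippase, scored 23.0 in replicate 1 and 42.3 in replicate 2, where it ranked 4775 and 4649. At ash-2, encoding a subunit of histone H3 lysine 4 methyltransferase complexes, the scores were 29.2 in replicate 1 and 70.5 in replicate 2. At czw-1, a kinetochore gene, they were 27.8 in replicate 1 and 117.8 in replicate 2, the highest replicate 2 score of any subthreshold peak, while the pooled score was 41.3. The peaks at ash-2, czw-1 and F53H1.4 had unusual shapes, with widths of 248 bp, 271 bp and 207 bp, and lay 461 bp, 446 bp and 544 bp from an IDR summit.

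Such narrow peaks were rare. The interval was 360 bp wide in 99.6% of subthreshold peaks, against 44.4% of IDR peaks. Of the 23 with another width, the widest of 698 bp, 16 lay within 500 bp of an IDR summit. Over all subthreshold peaks, 164 (3.18%, 2.71 to 3.69) lay that close to an IDR summit, against 4.71% of all nuclear bases. The nearest pair of summits was 199 bp apart, as it was for the next 5165 peaks, and the median distance was 3427 bp. The share of bases also counts those nearer than 199 bp to an IDR summit, where no subthreshold summit lay. It is therefore not a like measure for the share of summits. Within 1000 bp of an IDR summit lay 743 subthreshold peaks (14.4%).

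Scores of the replicates differed more at subthreshold peaks than in the IDR set. Over the 3522 peaks in both lists, the log2 ratio of the replicate 2 score to the replicate 1 score had a median of 0.58 and an SD of 0.86, against 0.96 and 0.54 for 4718 IDR peaks. In the next 5165 peaks, 1884 were in both lists, with a median of 0.08 and an SD of 0.67. The SD therefore did not rise steadily as the score fell, but it is not a like measure there. A peak with a low score in one replicate can drop out of that list. The lowest scores matched in that band were 5.87 in replicate 1 and 5.35 in replicate 2. The score was higher in replicate 2 at 74.5% of these subthreshold peaks and at 97.4% of the IDR peaks. Since the scales of separate lists need not match, only the spread of this ratio compares the replicates. Where a pooled score is fixed within a band, a high value in one replicate goes with a lower one in the other, and part of the spread follows from the selection.

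**Figure D2:**
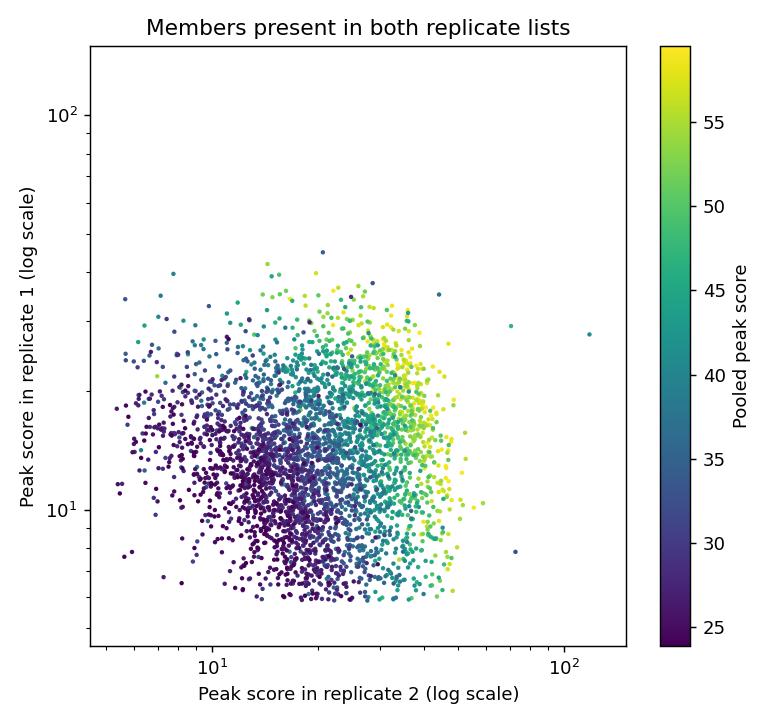
Peak scores in replicate 2 (horizontal, log scale) and replicate 1 (vertical, log scale) of the 3522 subthreshold peaks found in both lists, 1 point a peak, coloured by pooled score. The points slope down within each colour, and the peak farthest to the right, at 117.8 in replicate 2, is the one at czw-1.

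The extremes of this ratio at gene starts without an IDR summit show how unequal the replicates could be. The peak 403 bp upstream of F28H6.4 scored 6.02 in replicate 1 and 43.5 in replicate 2. The peak 80 bp upstream of clr-1, encoding a receptor tyrosine phosphatase, scored 6.47 and 38.8 in the same order, that upstream of aqp-11, an aquaporin gene, 7.80 and 46.1, that at ZK512.11 7.26 and 45.5, and that at C33A12.19 6.25 and 45.0. These 5 peaks ranked 19216 or lower in the replicate 1 list and between 4438 and 4916 in the replicate 2 list. In the other direction, the peak 126 bp upstream of ippk-1, which encodes an inositol phosphate kinase, scored 39.6 in replicate 1 and 7.76 in replicate 2. The peak shared by F25B5.3 and F25B5.6 scored 29.3 in replicate 1 and 6.42 in replicate 2 and lay 208 bp from an IDR summit. The peak at Y54F10BM.22 scored 23.0 in replicate 1 and 6.14 in replicate 2, and that at Y60A3A.8 19.5 in replicate 1 and 6.17 in replicate 2.

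Subthreshold summits were less often at gene starts and more often inside genes than IDR summits. The promoter window was defined as 500 bp upstream to 200 bp downstream of the annotated start of a protein-coding gene. It held 1134 subthreshold summits (22.0%, 20.8 to 23.1), against 49.7% of IDR summits, 16.3% of the next 5165 and 13.1% of nuclear bases. The difference from the IDR set was -27.7 percentage points (95% Newcombe interval -29.5 to -25.9). Introns held 31.3% of subthreshold summits and 19.1% of IDR summits, with 31.7% of nuclear bases. Coding exons held 288 subthreshold summits (5.58%, 4.97 to 6.24), against 0.620% of IDR summits, 11.8% of the next 5165 and 21.5% of nuclear bases. For 3′ untranslated regions the shares were 3.31% in the subthreshold peaks and 0.848% in the IDR set, and for 5′ untranslated regions 1.39% and 1.22%. The remaining 36.3% of subthreshold summits lay outside coding genes, against 28.5% of IDR summits and 29.9% of nuclear bases. Annotated starts in C. elegans can lie away from the site where transcription begins, because many messages are trans-spliced.

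The gap to the strongest peaks held in each replicate taken alone. In the list of replicate 1, ranks 4836 to 10000 had 19.9% of summits in promoter windows, against 48.3% of its top 4835. In the list of replicate 2 these shares were 22.1% and 50.01%. The replicates differed in coding exons, which held 11.3% of summits at those ranks in replicate 1 and 5.61% in replicate 2. Introns held 31.6% in replicate 1 and 31.3% in replicate 2.

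**Figure D3:**
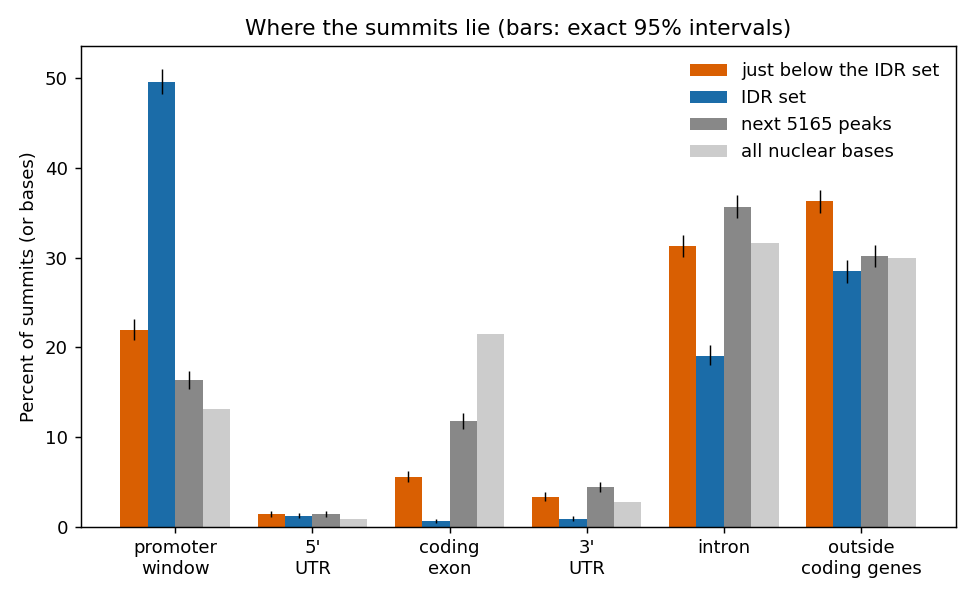
Percent of summits in each kind of location for the subthreshold peaks, the IDR set and the next 5165 peaks, beside the percent of all nuclear bases; bars carry exact 95% intervals. Promoter windows held 22.0% of subthreshold summits and 49.7% of IDR summits, and coding exons 5.58% and 0.620%.

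The location shifted with rank inside the subthreshold peaks too. From the highest to the lowest of the 5 bins, the promoter share was 26.1%, 24.3%, 21.1%, 20.1% and 18.1%, while the coding exon share was 2.32%, 4.45%, 6.10%, 6.68% and 8.33%. Intron summits made up 27.2% of the first bin and 34.1% of the last. Peaks found in both replicate lists and peaks found only in replicate 2 had near-equal promoter shares, 22.5% and 22.6%. Peaks found only in replicate 1 had 17.6%, with 9.03% in coding exons, and the 71 found in neither list had 12.7%.

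Around the starts themselves, the subthreshold summits were spread more widely. Of the summits in promoter windows, 832 of 1134 (73.4%, 70.7 to 75.9) lay upstream of the nearest start, against 92.0% of 2401 in the IDR set. Their median position was 112 bp upstream, against 153 bp upstream in the IDR set. Over all locations, the median distance to the nearest start was 1445 bp for subthreshold summits and 445 bp for IDR summits, and 50.8% of subthreshold summits were upstream of that start, against 72.6%. Windows of divergent genes were rarely shared. Only 55 subthreshold promoter summits (4.85%) lay in windows on both strands, against 26.3% of IDR promoter summits.

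**Figure D4:**
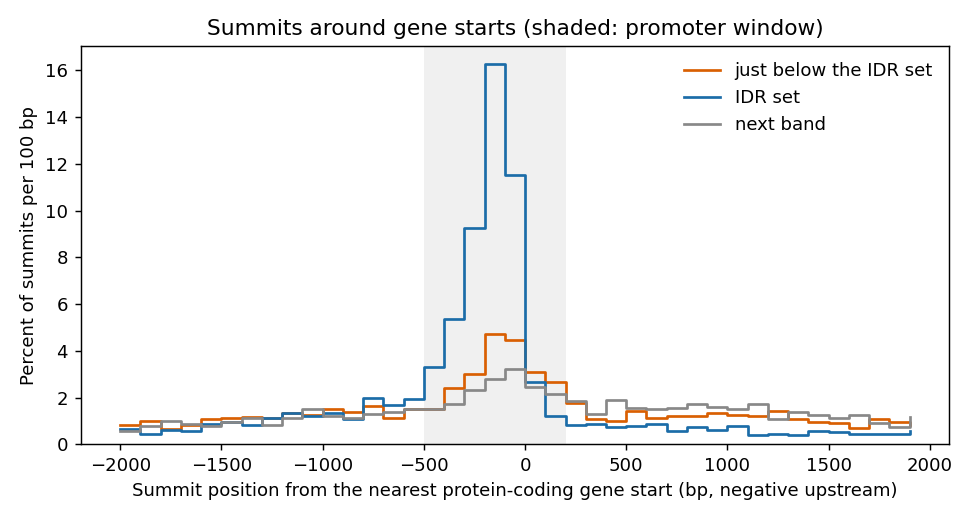
Percent of summits in each 100 bp interval around the nearest protein-coding gene start (negative values upstream) for the subthreshold peaks, the IDR set and the next band of 5165 peaks. The promoter window is shaded; the subthreshold curve is lower and broader than that of the IDR set, whose summits in the window had a median of 153 bp upstream against 112 bp.

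The E2F consensus was present at 544 subthreshold peaks (10.5%, 9.71 to 11.4) within 100 bp of the summit. It was present at 17.5% of IDR peaks and 8.07% of the next 5165. Windows of the same width 500 bp to the left and right of the subthreshold summits held it in 6.95% and 6.37%, and 6.30% of 498866 windows tiling the nuclear genome did. The difference from the IDR set was -7.01 percentage points (95% Newcombe interval -8.37 to -5.65). In the replicates taken alone, ranks 4836 to 10000 held it in 8.56% for replicate 1 and 10.3% for replicate 2, against 17.2% and 17.9% of their own top 4835. The same letters in reverse order without complementing, which have the same base composition, were found at 5.46% of subthreshold peaks and 10.5% of IDR peaks. A match is a description of the sequence and not a measured site.

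The consensus was no more frequent at promoter peaks than elsewhere. It was found at 8.82% of subthreshold promoter peaks (7.23 to 10.6) and 11.01% of those elsewhere (10.06 to 12.02). In the IDR set the order was the other way, with 19.8% of promoter peaks and 15.3% of those elsewhere. Among subthreshold peaks with the consensus, the nearest match was centred within 50 bp of the summit in 58.1% (53.8 to 62.3), against 74.1% in the IDR set. In the flanking windows, counted from their own centres, that share was 55.7% on the left and 54.7% on the right, within the interval of the summits. By rank bin the share with the consensus was 12.2%, 9.0%, 12.1%, 10.5% and 8.91%.

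A second element, the CHR (for cell cycle genes homology region), is bound by the MuvB subunit LIN-54 and was searched as TTCGAA or TTTGAA on both strands. It was found at 44.2% of subthreshold peaks and 44.8% of IDR peaks. The flanks of the subthreshold peaks held it in 57.2% and 55.3%, and 54.8% of genome windows did. The median GC content within 100 bp of the summit was 39.3% at subthreshold peaks, 42.3% at IDR peaks, 36.3% in the next 5165 and 35.3% in genome windows. The CHR is AT-rich, and the part of base composition in these shares was not tested.

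A short GA-rich word differed more between subthreshold summits and their flanks than the E2F consensus did, although it was counted in a narrower window. Within 50 bp of the summit, GAGAGA or its reverse complement was found at 20.7% of subthreshold peaks, against 5.83% and 5.89% in their flanks and 5.18% of genome windows. In the IDR set it was found at 30.7%, and in the next 5165 at 10.5%. The word AGAGAC was found at 12.5% of subthreshold peaks and 23.5% of IDR peaks, CGTCTC at 10.5% and 22.2%, and ACGCAG at 8.25% and 20.4%. Not all words were less frequent than in the IDR set. AAAAGA was found at 25.8% of subthreshold peaks and 19.9% of IDR peaks, and AGAAGA at 17.9% and 13.8%. These words overlap one another, were counted on both strands, and were chosen after their values were seen, so they carry no test. The runs printed above for Y24D9A.7 and R12B2.7 are examples.

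Counting subthreshold peaks would add 1140 protein-coding genes to those with an IDR summit in the promoter window. A gene was called gained when a subthreshold summit lay in its window and no IDR summit did. This held for 5.71% of the 19973 coding genes and for 6.73% of the 16946 genes without an IDR summit. The IDR set covered 3027 genes, so that either kind of peak reached 4167 genes (20.9%). A subthreshold summit lay in the windows of 1180 of the 19973 coding genes, and 40 of these were among the 3027 with an IDR summit. No subthreshold summit lay nearer than 199 bp to an IDR summit, which limits how often a window can hold both. The part of this limit in the number was not tested. Of the gained genes, 817 (71.7%) were gained through peaks present in both replicate lists, and 96 (8.42%) had the E2F consensus at their peak. On the X chromosome 128 of 2731 coding genes (4.69%) were gained, against 1012 of 17242 autosomal genes (5.87%). Genes with an IDR summit made up 7.62% of X-linked and 16.3% of autosomal genes.

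The genes gained by rank in each replicate list alone overlapped only in part. With the same ranks taken from each replicate list alone, and that list's own top 4835 in place of the IDR set, replicate 1 gave 1028 gained genes and replicate 2 gave 1159. The genes in common numbered 397, which was 38.6% of those of replicate 1 and 34.3% of those of replicate 2. Of the 1140 genes gained in the pooled list, 368 (32.3%) were gained in each replicate alone as well. A gene whose peak ranked in a replicate's own top 4835 was not gained there, as for tat-1 and ash-2 in both replicates. Part of the limited overlap is therefore built into the rule, and how much was not tested.

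Many gained genes start close behind another gene. In C. elegans, operons place several genes behind one promoter, and the downstream genes then start shortly after the end of the gene before. Of the gained genes, 319 (28.0%) started at most 500 bp after the end of another gene on the same strand, against 13.3% of genes with an IDR summit and 18.1% of all coding genes. Left without those, 821 genes were gained.

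The highest-ranked promoter peaks among them lay at genes of many functions. The first, with a pooled score of 59.4, stood 340 bp upstream of eak-7, which acts in dauer and lifespan control, and scored 18.6 in replicate 1 and 39.6 in replicate 2. The peak 181 bp upstream of Y24D9A.7 also scored 59.4, with 14.8 in replicate 1 and 47.6 in replicate 2. That at R12B2.7, with a pooled score of 59.1, was higher in replicate 1, at 35.9, than in replicate 2, at 22.1. The peak shared by acl-3 and ndub-6 scored 18.1 in replicate 1 and 42.4 in replicate 2. The peak 157 bp upstream of daf-1, the type I receptor of the dauer TGF-β pathway, scored 20.7 in replicate 1 and 35.9 in replicate 2. The peak shared by stau-1, a Staufen-type RNA-binding protein gene, and sec-22, a vesicle SNARE gene, scored 22.7 in replicate 1 and 35.7 in replicate 2. The peaks at tat-1, F58F9.1, T10C6.6 and EGAP1.5 completed the first 10. None of the 10 held the E2F consensus, beside 8.82% of all subthreshold promoter peaks.

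The last promoter peaks of the band were weaker in both replicates or absent from one. The peak 8 bp upstream of etr-1, encoding an RNA-binding protein, had a pooled score of 23.9, was not in the replicate 1 list and scored 21.8 in replicate 2. That at cpn-4, a calponin gene, was likewise found only in replicate 2, with a score of 15.6. The peak at nhr-177 scored 6.87 in replicate 1 and 16.3 in replicate 2, that at F35H10.5 9.81 in replicate 1 and 13.3 in replicate 2, and that at athp-1 8.45 in replicate 1 and 10.7 in replicate 2. Between these ends, the gained genes whose peaks ranked best in the weaker of both replicates were ash-2, tat-1, pgm-3, act-3 and T26A5.8, with worse ranks of 3962, 4775, 4845, 5081 and 5155.

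Most genes of the DNA replication list and of the mitosis and kinetochore list had an IDR summit already. This left few that could be gained, beside a share of 6.73% over all genes without an IDR summit. Of 43 DNA replication genes matched, 35 had an IDR summit and 0 of the other 8 were gained (interval 0 to 36.9%). Of 52 mitosis and kinetochore genes, 40 had an IDR summit and 2 of the other 12 were gained (16.7%, 2.09 to 48.4). Both intervals included 6.73%. The 2 genes were cls-2, a microtubule-binding CLASP gene with a pooled score of 55.6, and sas-4, a centriole assembly gene with 40.1, which was found only in replicate 2. The gene sas-4 lay behind another gene on the same strand. Of the 8 DREAM subunit genes, 6 had an IDR summit and lin-52, a MuvB subunit gene, was gained. Its peak stood 24 bp upstream of the start, scored 36.1, was found in replicate 2 only, with a score of 31.2, and lay behind another gene on the same strand. Of 5 E2F, DP and pocket protein genes, 3 had an IDR summit, and efl-3, an E2F gene related to mammalian E2F7 and E2F8, was gained. Its peak, 461 bp upstream, held the E2F consensus and scored 16.0 in replicate 1 and 20.2 in replicate 2.

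The list of cell cycle regulators, which includes mitotic regulators, had 10 of 32 genes with an IDR summit. It gained 4 of the 22 without an IDR summit (18.2%, 5.19 to 40.3), beside 6.73% of all such genes. The peak 453 bp upstream of cdk-4, the G1 cyclin-dependent kinase gene, had a pooled score of 57.5, with 10.9 in replicate 1 and 46.5 in replicate 2. Those at emb-30 and apc-11, subunits of the anaphase-promoting complex, stood 104 bp and 189 bp inside the genes, with pooled scores of 49.2 and 26.7. Both of these genes lay behind another gene on the same strand. The peak 85 bp upstream of cul-1, the scaffold of SCF ubiquitin ligases, scored 40.4 and was found only in replicate 2. None of the 4 peaks held the E2F consensus, beside 8.42% of all gained genes with it at their peak. A count of 4 is too small to differ from that share. DNA repair gained 3 of 18 (16.7%, 3.58 to 41.4). They were the mismatch repair gene pms-2 and the excision nuclease genes xpf-1 and ercc-1, all 3 behind another gene on the same strand. The peak at pms-2 lay 69 bp upstream of nhr-101 too, and that at xpf-1 122 bp upstream of tars-1, the threonyl-tRNA synthetase gene. Meiosis gained dsb-1 and him-8 of 26 (7.69%, 0.95 to 25.1), both behind another gene on the same strand. The germline list gained oma-2 of 30 (3.33%, 0.08 to 17.2). The intervals of all lists in this paragraph included 6.73%.

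Housekeeping families were covered to different extents by the IDR set, and the intervals of those given here included the 6.73% over all genes without an IDR summit. Of 78 cytosolic ribosomal protein genes, 67 had an IDR summit and 0 of the other 11 were gained (interval 0 to 28.5%), and of 33 proteasome genes 26 had one and 0 of the other 7 were gained (interval 0 to 41.0%). Mitochondrial ribosomal protein genes gained 5 of 32 (15.6%, 5.28 to 32.8). They were mrps-23, mrps-21, mrpl-48, mrpl-13 and mrpl-32, of which all but mrps-23 lay behind another gene. Aminoacyl-tRNA synthetases gained tars-1 and hars-1 of 19. Chaperone and heat shock genes gained dnj-7, hsp-12.6, hsp-43 and hsf-1, the heat shock factor gene, of 32.

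Nuclear hormone receptor and homeobox genes seldom had an IDR summit. Beside 6.73% of all genes without an IDR summit, the interval of the share gained lay above that value for the receptors and included it for the homeobox genes. Nuclear hormone receptors, a family of ligand-regulated transcription factors much enlarged in nematodes, had 29 of 274 genes with an IDR summit and gained 33 of the other 245 (13.5%, 9.46 to 18.4). They were gained through 32 separate peaks. Peaks in both replicate lists accounted for 22 of the genes, beside 71.7% of all gained genes. The E2F consensus was at the peaks of 2 of the genes, beside 8.42% of all gained genes. On chromosome V 24 of 167 receptor genes were gained (14.4%), against 225 of 4994 coding genes there (4.51%). The highest were nhr-156, nhr-134, nhr-133, nhr-212 and nhr-184, with pooled scores of 55.8, 54.4, 53.5, 52.9 and 46.7. The peak 58 bp upstream of nhr-156 scored 16.3 in replicate 1 and 37.2 in replicate 2, and that at nhr-212 28.8 in replicate 1 and 35.3 in replicate 2. Homeobox genes gained 10 of 81 (12.3%, 6.08 to 21.5), led by ceh-99, ceh-93, ceh-89, ceh-6 and unc-42. Of these, ceh-89 was found only in replicate 2.

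Muscle structure genes gained 6 of 30 (20.0%, 7.71 to 38.6), beside 6.73% of all genes without an IDR summit. The 5 highest were the actin genes act-3 and act-1, the myosin heavy chain gene unc-54, unc-98, whose protein lies at muscle attachment structures, and the troponin I gene unc-27. The peak 127 bp upstream of act-3 scored 25.6 in replicate 1 and 36.9 in replicate 2, and that 471 bp upstream of act-1 scored 32.4 in replicate 1 and 28.7 in replicate 2. That at unc-54, 121 bp upstream, scored 14.9 in replicate 1 and 37.3 in replicate 2. The peak at unc-27 was found only in replicate 2. Actin genes have near-identical copies, and how reads matching several places were treated is not given in the sources used here.

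Signalling, chromatin and small RNA lists held further gained genes, with shares above the 6.73% over all genes without an IDR summit but intervals that included it. Insulin and TOR signalling gained 4 of 19 (21.1%, 6.05 to 45.6), namely the insulin receptor gene daf-2 (only in replicate 1), the FoxA gene pha-4, the TOR kinase gene let-363 and the LKB1 kinase gene par-4 (only in replicate 2). Chromatin and synMuv genes gained 4 of 21 (19.0%, 5.45 to 41.9), the H3K27 demethylase gene utx-1, ash-2, the SWI/SNF subunit gene pbrm-1 and lin-56. Small RNA pathways gained 4 of 22 (18.2%, 5.19 to 40.3), the double-stranded RNA channel gene sid-1, nrde-2, rde-2 and rde-12. In these lists, let-363 and rde-2 lay behind another gene on the same strand. The vulval EGF-Ras list gained the adaptor gene sem-5 and the Hox gene lin-39 of 22, and the neuronal list unc-104, unc-29 and glr-1 of 35. Below 6.73%, though with intervals that included it, were the intestine list and the heterochronic genes. The intestine list gained spp-1, behind another gene on the same strand, of 26 (3.85%, 0.10 to 19.6). Heterochronic genes gained 0 of 10 (interval 0 to 30.8%).

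Large families of receptors, F-box proteins and lectins were seldom reached. Chemoreceptor genes gained 5 of 1301 (0.384%, 0.125 to 0.895), F-box genes 2 of 300 (0.667%) and C-type lectins 3 of 236 (1.27%), each with an interval below 6.73%. The col, dpy, sqt, rol and bli genes, mostly cuticle collagens, gained 13 of 184 (7.07%) through 11 peaks, led by dpy-11, which encodes a thioredoxin-like protein, col-166, col-107, col-10 and col-144. Neuropeptide and insulin-like genes gained 6 of 141 (4.26%), led by nlp-29, nlp-24, nlp-31, nlp-33 and nlp-16. Over all 28 lists, the interval lay above 6.73% in 2, the nuclear hormone receptors and muscle structure, and below it in 3. These are descriptions of chosen lists and carry no test.

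**Figure D5:**
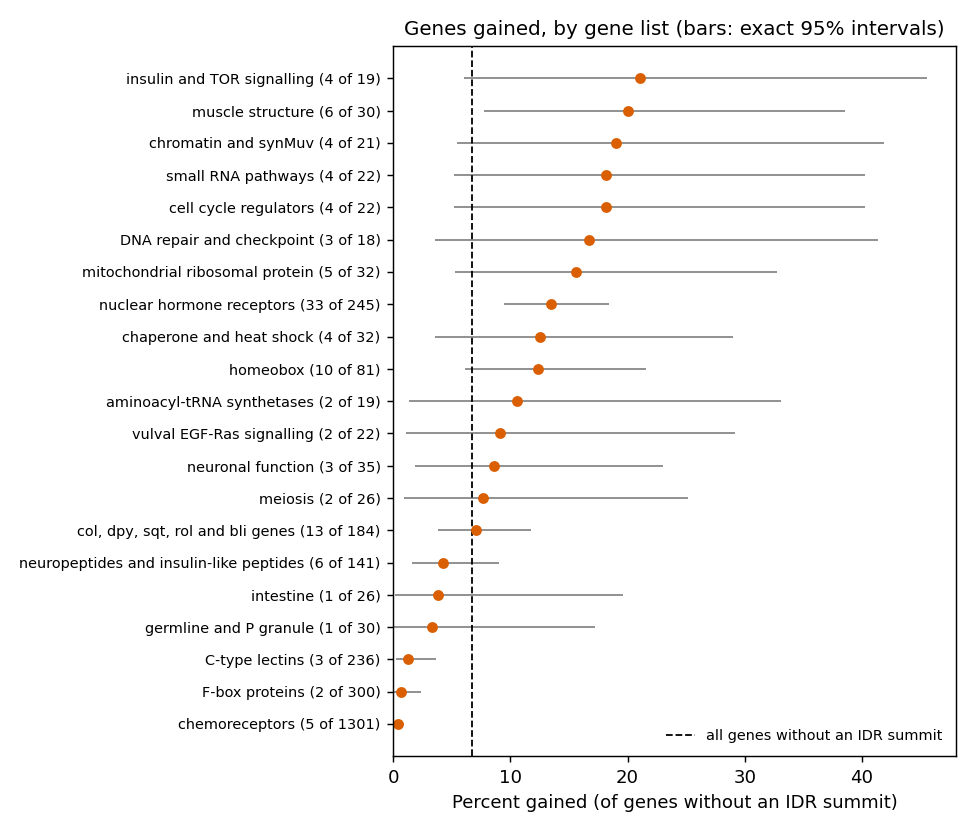
Percent of the genes without an IDR summit that were gained (horizontal axis), for each list with 15 or more such genes; points are shares, bars exact 95% intervals, and the counts stand beside the names. The dashed line marks the share over all genes without an IDR summit, 6.73%, and the 33 of 245 nuclear hormone receptor genes and the 6 of 30 muscle genes have intervals above it.

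Among non-coding RNA genes, tRNA, snoRNA and snRNA genes were more often near an IDR summit than gained. Such a gene was called gained when a subthreshold summit, and no IDR summit, lay within 200 bp of it. Genes of these classes have near-identical copies, so the assignment of reads between copies is uncertain. Of 612 tRNA genes, 86 (14.1%) were gained and 226 (36.9%) were near an IDR summit. Of 346 snoRNA genes 28 (8.09%) were gained and of 129 snRNA genes 8 (6.20%), against 103 and 31 near an IDR summit. For microRNAs the order was the other way, with 18 of 261 genes (6.90%) gained and 11 (4.21%) near an IDR summit. Antisense RNA genes had the same order as microRNAs, with 9 gained and 7 near an IDR summit of 100. So did pseudogenes, with 38 and 37 of 2128, and the piRNA genes given below. Of the 7764 genes annotated as ncRNA, 580 (7.47%) were gained and 781 (10.1%) were near an IDR summit. The snoRNA, snRNA and microRNA shares gained were near that share, and the tRNA share was higher. The highest of the microRNA genes were cel-mir-79, cel-mir-45 and cel-mir-42, with pooled scores of 57.9, 51.0 and 46.0. The genes cel-mir-64, cel-mir-65 and cel-mir-66, neighbours on chromosome III, shared a peak found only in replicate 1. Likewise, cel-mir-356a and cel-mir-356b shared a peak. Of the 15363 piRNA genes 87 (0.566%) were gained and 58 (0.378%) were near an IDR summit. Of 20 rRNA genes 0 were gained.

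Subthreshold peaks covered the chromosomes much as IDR peaks did, with a shift towards X. Per megabase there were 34.7 subthreshold peaks on X, against 25.4 IDR peaks, and on the autosomes 40.0 to 73.4 against 35.4 to 70.9. X held 11.9% of subthreshold peaks (11.04 to 12.8) and 9.31% of IDR peaks, with 17.7% of nuclear bases. The 50 kb interval with the most subthreshold peaks was III:5800001-5850000. It held 20, of which 14 were in both replicate lists, and 3 IDR peaks, against a mean of 2.57 subthreshold peaks per interval. It spans R12B2.7, the homeobox gene ceh-10 and the kinetochore gene him-10.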

How the data were processed

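Peak lists from ChIP-seq of 1 group with 2 biological replicates were used. Per the labels, both replicates are separate biosamples, and library sizes ranged from 150 to 350 bp. The authors deposited each peak with a peak score, whose scale is not stated, and with a −log10 q, read from the peak format's definition. Which aligner and which peak caller made them is not given in the sources used here. Lists were deposited on ce10 and ce11; ce11 positions were used (assembly WBcel235, gene models of Ensembl release 115), and ce10 lists only for counts. Read depth is unknown, and the control library and signal tracks were not analysed here.

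Peaks were ranked by score, and summits were matched within 100 bp. Each summit was assigned to the first of promoter window, 5′ untranslated region, coding exon, 3′ untranslated region, other exon, intron and outside coding genes. Motifs were searched within 100 bp. Shares carry exact 95% binomial intervals and differences Newcombe intervals; no p-value was computed, because peaks are not replicates and there is 1 group. Gene lists (28, with 3358 entries, of which 12 matched no coding gene) were counted beside all genes; 2 entries that did not belong to their lists were taken out after the counts were seen. The peaks and lists were chosen with earlier results of these data known. Genes were named by rule: those of the first 10 and last 5 promoter peaks, the 5 with the best weaker replicate rank, the 5 with the largest score ratio each way, and all gained genes of a list up to 5, otherwise its 5 highest. Genes of the peaks in both replicate tops, of the densest interval and of microRNAs were chosen after their values were seen. Python 3.11.15, pandas 2.3.3, NumPy 2.4.6, SciPy 1.17.1 and matplotlib 3.10.9 were used. The counting steps, tested on simulated data, gave the known answer in 200 of 200 cases each.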

Additional observations from a re-analysis of the deposited data

How the results depend on the processing

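The 5 main values gave 46 alternative values, of which 19 stayed within the interval of the main share or within 1.5 times the main count; the other 27 are given here with the values for single replicates, and their cause was not tested beyond what each setting builds in. The share of subthreshold peaks in both replicate lists (68.2%) was 46.1% with 50 bp between summits, 85.0% with 200 bp and 89.6% with overlap of intervals. It was 77.5% up to rank 7500, 52.7% up to rank 15000 and 83.7% where q stood at its ceiling. With a replicate left out, so that the same ranks of a single list were sought in the other, it was 50.6% to 53.0%. The promoter share (22.0%) was 24.3% up to rank 7500, 19.2% up to rank 15000, 26.8% at the q ceiling, 15.3% with a window of 300 bp up and 100 bp down and 33.2% with 1000 bp up and 500 bp down, and 19.9% to 22.1% with a replicate left out. Genes gained (1140) numbered 668 up to rank 7500, 1901 up to rank 15000 and 163 at the q ceiling, and 1028 to 1159 with a replicate left out. The share with the E2F consensus (10.5%) was 9.31% up to rank 15000, 12.6% at the q ceiling, 5.83% with 50 bp to each side and 13.6% with 150 bp, and 8.56% to 10.3% with a replicate left out. The share within 500 bp of an IDR summit (3.18%) was 3.83% up to rank 7500, 2.46% up to rank 15000, 3.74% at the q ceiling and 2.36% for peaks in both lists, and 3.48% to 3.79% with a replicate left out. For peaks over 500 bp from every IDR summit it is 0 by construction and was not run. No paired analysis was possible because there is 1 group. Depth is unknown, so how many subthreshold peaks deeper libraries would move across the threshold could not be measured.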
